A study of Mus musculus with 6 samples.

Results

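The protein subunits of oxidative phosphorylation that are encoded in the nucleus were examined in lung endothelial cells (ECs) of mice with lung metastases, with and without macrophage depletion. Members were taken by symbol alone, as genes whose symbol started with Nduf, Uqcr, Atp5, Cox4, Cox5, Cox6, Cox7 or Cox8, together with Sdha, Sdhb, Sdhc and Sdhd. Ndufa4, now counted as a subunit of complex IV in spite of its name, was left out. This gave 89 of the 18193 genes that had a probe set annotated to them alone. Of these, 79 are structural subunits, with 34 in complex I, 4 in complex II, 8 in complex III, 16 in complex IV and 17 in complex V. A further 8 members are complex I assembly factors, whose symbols start with Ndufaf. The last 2 are Ndufa4l2, a paralog of Ndufa4, and Cox7a2l, a factor in the joining of respiratory complexes. The rule itself used symbols and no measured difference.

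RNA of the sorted ECs was measured on 6 Affymetrix mouse expression arrays, 3 for PBS-liposome and 3 for clodronate-liposome. All samples came from NSG mice, an immunodeficient strain that lacks T, B and NK cells but keeps macrophages, aged 6 to 8 weeks, whose lungs carried metastases 3 weeks after MDA-MB-231-LM2 cells were given by vein. This is a human breast cancer cell line derivative selected for lung metastasis. Liposomes were injected on days 14, 16 and 18 and lungs were taken on day 20. Clodronate-loaded liposomes kill the phagocytes that take them up, and liposomes that held only PBS served as the control, so both groups carried tumor cells and received liposomes. The sort kept CD31+ cells and removed cells with CD45, CD11b, EpCAM, CD140a, CD140b or the GFP of the tumor cells. The labels call the replicates biological, without giving the number of mice in each.

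Oxidative phosphorylation takes place at the inner mitochondrial membrane. Complexes I and II pass electrons from NADH and succinate to coenzyme Q, complex III passes them on to cytochrome c, and complex IV passes them to oxygen, while complexes I, III and IV pump protons that drive ATP synthesis by complex V. A few core subunits are encoded in mitochondrial DNA and are not among the members, whereas complex II is encoded wholly in the nucleus. ECs are known for relying strongly on glycolysis for ATP, with their mitochondria also serving biosynthesis and signaling.

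Many promoters of these genes hold binding motifs of a few shared transcription factors. Among the 89 members, 73 had a promoter window in a RefSeq table of build GRCm38.p6, reaching from 250 bases before to 50 bases after an annotated start. Exact matches to a short core of each motif were searched on both strands. GCATGCG, a core of the NRF1 motif, lay in the windows of 12 members (16.4%), against 5.87% of the 14368 genes with a window. CCGGAAG, a motif of GABPA and other ETS factors, lay in 19 (26.0%, against 15.0%), and GATGGCG, a core of the YY1 motif, in 11 (15.1%, against 5.82%). At least 1 of the 3 lay in 33 members (45.2%, against 23.8%), and no match overlapped that of another factor. A stretch is shown for Atp5e and Atp5k, the lower and the higher member with the smallest p, and for Atp5j, whose window holds all 3 motifs upstream of its start. All 3 genes lie on the minus strand, and the stretches run 5′ to 3′ in the direction of the gene. Capitals mark the motif (its reverse complement for Atp5e), which begins 102, 48 and 86 bases before the start. The stretches lie at chr2:174464185-174464215, chr5:108434429-108434459 and chr16:84835044-84835074.
Atp5e, ETS: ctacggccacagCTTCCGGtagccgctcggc
Atp5k, NRF1: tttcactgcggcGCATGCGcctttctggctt
Atp5j, YY1: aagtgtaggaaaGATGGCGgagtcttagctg
The median log2 difference between the liposome groups was 0.01 over the 33 members with a motif and 0.02 over the 40 members without. Members with the NRF1 core ranged from -0.19 to 0.30, those with the ETS motif from -0.42 to 0.30 and those with the YY1 core from -0.16 to 0.13. The matches are letters in a window and say nothing of binding.

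Values were log2 signals, and each gene was read by its brightest probe set over the 6 arrays. Over all genes, 79 of 18193 differed between the groups at an adjusted p under 0.05 (0.434%, limma, Benjamini-Hochberg over 45037 probe sets), 63 of them lower with clodronate-liposome. Endothelial markers were strong in the sorted cells, with 10 of 10 above the median signal of the array and a median difference of 0.07. Some markers of other cell types also lay above that median. Leukocyte markers, of cells that the sort should remove, had a mean level of 8.51 to 8.91 in PBS-liposome and 8.24 to 8.48 in clodronate-liposome arrays (8 genes, 6 above the median signal, median difference -0.34, 0 past the threshold). Lcp1 raised these levels, with group means of 11.64 and 11.56, while those of the other genes lay between 7.08 and 8.69. The defining marker Ptprc, the CD45 gene, differed by -0.58 (SE 0.16, adjusted p = 0.217 by limma). Macrophage markers (12 genes, 6 above the median signal) had mean levels of 8.48 to 8.83 and 8.37 to 8.56, with a median difference of -0.10. Among them, 4 had lower values in all clodronate-liposome arrays (33.3%, against 8.75% of all genes) and 0 had higher values in all (against 7.49%). The lowest were Cybb, a subunit of the phagocyte oxidase, at -1.06 (SE 0.19, adjusted p = 0.0871 by limma) and Csf1r, the receptor of the macrophage growth factor, at -0.65 (SE 0.12, adjusted p = 0.101 by limma). The other way lay 3 markers with overlapping groups, Fcgr1 (0.32), Mertk (0.07) and Mrc1 (0.05), and Lyz2 differed by -0.03. Mertk was the brightest of the macrophage markers, with group means of 12.08 and 12.15. Fibroblast markers, also of cells that the sort should remove, had mean levels of 10.02 to 10.16 in PBS-liposome and 9.60 to 10.15 in clodronate-liposome arrays (7 genes, 6 above the median signal). The epithelial marker Sftpc averaged 10.96 and 10.91 but was uneven between arrays (SE of the difference 0.95). It read 11.38, 10.14 and 11.35 in PBS-liposome and 8.49, 12.78 and 11.47 in clodronate-liposome replicates 1 to 3. Another epithelial marker, Scgb1a1, had the reverse order in clodronate-liposome replicates 1 and 2, at 11.28 and 7.53. Medians were -0.14 for mural, -0.19 for fibroblast, 0.00 for epithelial, -0.49 for erythroid (3 genes) and -0.09 for brown fat markers, each with 0 past the threshold. In bulk samples, fewer cells of a type and less RNA per cell cannot be told apart. The part of these cells in the values below was not tested.

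No member passed the test between the groups. At an adjusted p under 0.05 there were 0 of 89 by limma, against the 0.434% of all genes. The smallest adjusted p was 0.223, and 0 of the 178 probe sets of the members passed. At an unadjusted p under 0.05 there were 6 members (6.74%), against 10.0% of all genes. Differences ran from -0.42 to 0.57 with a median of 0.01, while the median over all genes was 0.00. They were above 0 in 48 members and below 0 in 41. The groups did not overlap in 8 members that lay lower with clodronate-liposome (8.99%, against 8.75% of all genes) and in 10 that lay higher (11.2%, against 7.49%). The first were Ndufa6, Ndufa8, Ndufb1, Ndufs4, Ndufaf2, Cox7a2, Atp5e and Atp5o, and the second Ndufa3, Ndufb6, Ndufb10, Ndufc2, Ndufs1, Cox6a2, Atp5b, Atp5j, Atp5k and Atp5l, listed after their values had been seen. Both directions thus occurred within complex I and within complex V.

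The arrays bounded most members closely. The 95% confidence interval of the difference lay wholly between -0.5 and 0.5, that is within a 1.41-fold change either way, for 79 members (88.8%), against 72.2% of all genes. Of the 83 members at or above the array's median signal of 8.12, 76 had such an interval (91.6%, against 69.7% of the genes at or above it), and of the 6 dimmer members 3 did. Standard errors ran from 0.087 to 0.22 with a median of 0.10. The widest reach on either side was 1.04 for Cox7c and -0.69 for Atp5e. Smaller changes than these intervals hold cannot be told from none with 3 arrays per group.

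**Figure D1:**
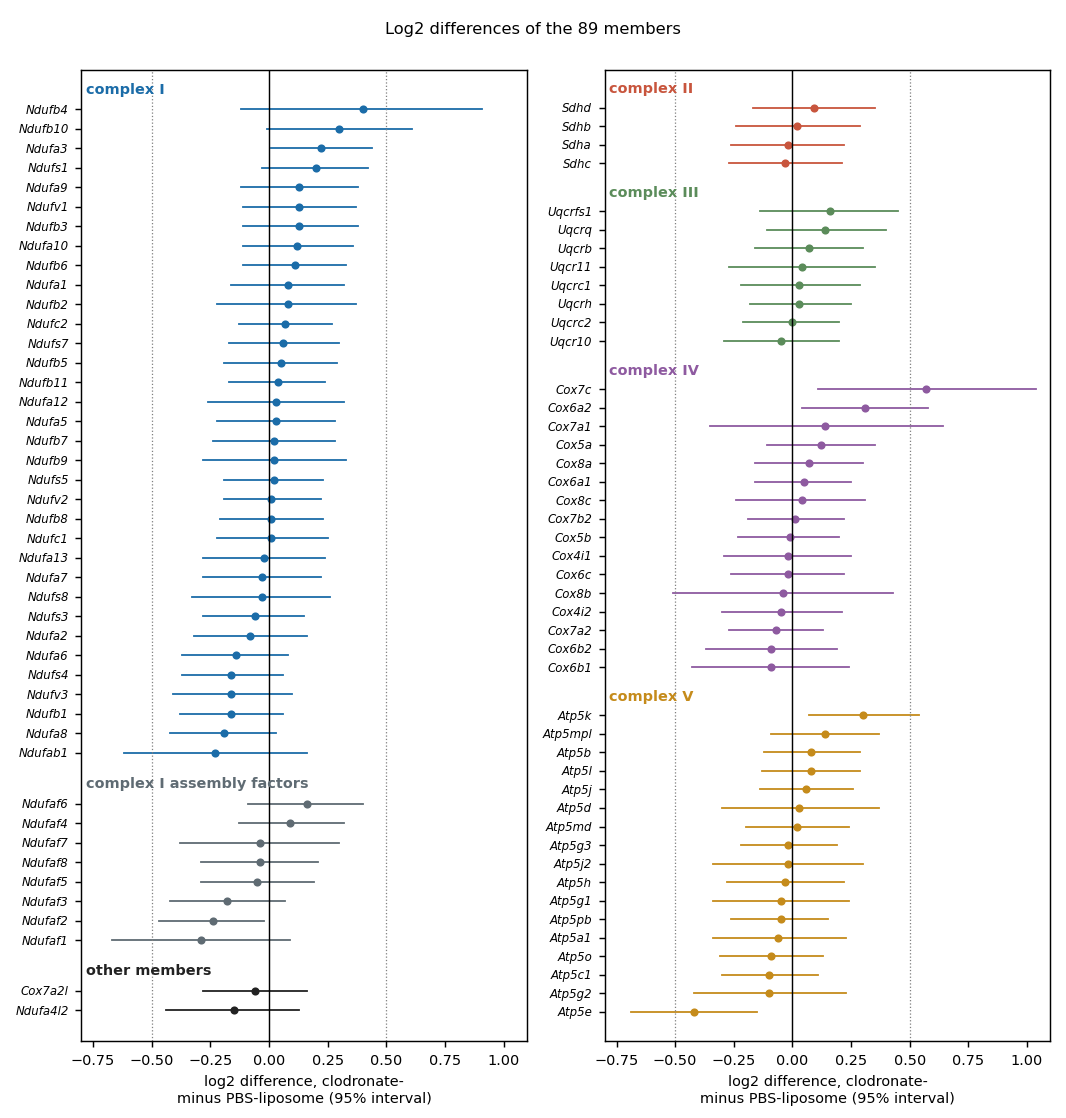
Log2 difference, clodronate-liposome minus PBS-liposome, of each of the 89 members (dots) with its 95% confidence interval (lines), ordered within complexes; dotted lines mark -0.5 and 0.5. Complex medians lie between -0.02 and 0.04, and the intervals of 79 members stay between the dotted lines.

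Complex I, which oxidizes NADH, had a median difference of 0.03 over its 34 members, with 23 above 0, 11 below and 0 past the threshold. Its matrix arm holds the flavin and the iron-sulfur clusters, and its membrane arm pumps protons. The 14 matrix-arm members had a median of -0.01 (-0.16 to 0.20) and the 19 membrane-arm members of 0.05 (-0.19 to 0.40). The remaining member is Ndufab1, an acyl carrier protein bound to both arms. In the matrix arm, Ndufv1, the flavin-binding subunit that takes the electrons of NADH, read 12.31, 12.30 and 12.37 in PBS-liposome and 12.60, 12.32 and 12.44 in clodronate-liposome replicates 1 to 3. Its groups overlapped, with a difference of 0.13 (SE 0.10). Ndufs1, the largest iron-sulfur subunit, read 11.59, 11.48 and 11.62 against 11.85, 11.74 and 11.70. All clodronate-liposome arrays were higher, by 0.20 on average (SE 0.097, adjusted p = 0.529 by limma).

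In the membrane arm, the small accessory subunit Ndufa3 had the smallest p of complex I. It read 12.31, 12.30 and 12.34 in PBS-liposome and 12.62, 12.53 and 12.47 in clodronate-liposome arrays, a difference of 0.22 (SE 0.091, 1.17-fold, adjusted p = 0.428 by limma). Its groups did not overlap, but its other 2 probe sets differed by 0.01 and -0.10. Ndufb10, also an accessory subunit, read 10.68, 10.71 and 10.74 against 11.23, 10.74 and 11.06, a difference of 0.30 (SE 0.13). Its clodronate-liposome replicate 2 lay almost at the highest PBS-liposome array, and the difference was 0.44 without that replicate and 0.19 without replicate 1. Ndufa8, a subunit on the side of the intermembrane space, lay the other way, at 12.58, 12.65 and 12.79 against 12.46, 12.53 and 12.45, with a difference of -0.19 (SE 0.098).

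The complex I assembly factors, which build the complex and are not part of it, had a median of -0.04 over 8 members, with 6 below 0. Ndufaf2 had the smallest p among them. It read 10.00, 9.91 and 9.80 in PBS-liposome and 9.72, 9.66 and 9.61 in clodronate-liposome arrays, so that the groups did not overlap (-0.24, SE 0.097, adjusted p = 0.426 by limma). Ndufaf1 differed by -0.29 (SE 0.16), which was -0.48 without PBS-liposome replicate 2 at 8.92, the lowest array of its group. Ndufaf3 differed by -0.18 (SE 0.10) and Ndufaf6 by 0.16 (SE 0.11), with overlapping groups in both. Over the 8 factors, the median was -0.14 without PBS-liposome replicate 1 and -0.13 without clodronate-liposome replicate 1.

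Complex II, succinate dehydrogenase, also an enzyme of the tricarboxylic acid cycle, showed the narrowest range of differences among the 5 complexes, -0.03 to 0.09 over its 4 members. It also has the fewest members, and a range tends to widen with more of them. Sdha, the flavoprotein, read 12.36, 12.29 and 12.10 in PBS-liposome and 12.18, 12.29 and 12.23 in clodronate-liposome arrays, a difference of -0.02 (SE 0.11). Sdhb, the iron-sulfur subunit, differed by 0.02 (SE 0.11). The membrane anchors Sdhc and Sdhd differed by -0.03 (SE 0.10) and 0.09 (SE 0.11). The groups overlapped in all 4, and every interval lay between -0.27 and 0.35.

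Complex III, the cytochrome bc1 complex, had a median of 0.04 over 8 members, 6 of them above 0, with intervals between -0.29 and 0.45. The core subunit Uqcrc1 read 12.84, 12.68 and 12.84 in PBS-liposome and 12.92, 12.66 and 12.87 in clodronate-liposome arrays, a difference of 0.03 (SE 0.11). Uqcrfs1, the Rieske iron-sulfur protein, read 10.95, 11.16 and 11.09 against 11.30, 10.99 and 11.37, a difference of 0.16 (SE 0.13). In both genes the groups overlapped because clodronate-liposome replicate 2 lay low. Among the small subunits, Uqcrq differed by 0.14 (SE 0.11), Uqcrb by 0.07 (SE 0.099) and Uqcr10 by -0.05 (SE 0.11).

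Complex IV, cytochrome c oxidase, had a median of 0.00 over 16 members, split evenly between 8 above and 8 below 0. Several of its subunits exist as a ubiquitous form and a form of particular tissues. The 9 ubiquitous members had a median of -0.01 and the 7 tissue forms of 0.01. Cox4i1, the ubiquitous form of the largest subunit encoded in the nucleus, read 12.99, 12.90 and 13.00 in PBS-liposome and 13.06, 12.73 and 13.04 in clodronate-liposome arrays (-0.02, SE 0.12). Its partner Cox4i2, a form of lung and of cells that sense hypoxia, differed by -0.05 (SE 0.11). Cox5a, a ubiquitous subunit on the matrix side, differed by 0.12 (SE 0.10). For the pairs of a ubiquitous form and a form of heart and skeletal muscle, the differences were 0.05 in Cox6a1 and 0.31 in Cox6a2, -0.07 in Cox7a2 and 0.14 in Cox7a1, and 0.07 in Cox8a and -0.04 in Cox8b. Cox6b1 and the testis form Cox6b2 differed by the same -0.09.

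Of these, Cox6a2 had an unadjusted p under 0.05. It read 8.85, 8.92 and 8.90 in PBS-liposome and 9.15, 9.41 and 9.04 in clodronate-liposome arrays, a difference of 0.31 (SE 0.12, 1.24-fold, adjusted p = 0.385 by limma). All clodronate-liposome arrays were higher, whereas its dimmer probe set overlapped, at 0.09. The large veins of the mouse lung carry cardiac muscle, which uses these muscle forms, and 12 cardiac muscle markers had a median difference of -0.15, with mean levels of 7.58 to 7.65 in PBS-liposome and 7.35 to 7.52 in clodronate-liposome arrays and 2 above the median signal. The part of cardiac muscle in the value of Cox6a2 was not tested. Cox7c, a small ubiquitous subunit, had the largest difference of all members, 0.57 (SE 0.20, 1.49-fold, adjusted p = 0.352 by limma). It read 7.20, 7.25 and 7.93 against 8.01, 8.23 and 7.87, and is among the 6 members whose mean lies below the array's median signal. PBS-liposome replicate 3 lay among the clodronate-liposome arrays, and the difference was 0.81 without it.

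Complex V, the ATP synthase, had a median of -0.02 over 17 members, with 7 above 0 and 10 below. Its F1 head makes ATP, the c ring turns with the proton flow, the peripheral stalk holds the head still, and further small subunits lie in the membrane. Medians were -0.06 over the 5 members of the head, -0.05 over the 3 genes of the c ring, -0.04 over 4 stalk members and 0.08 over 5 membrane members. The catalytic subunit Atp5b read 13.05, 13.06 and 13.05 in PBS-liposome and 13.14, 13.09 and 13.17 in clodronate-liposome arrays. All clodronate-liposome arrays were higher, but by only 0.08 (SE 0.088). Its partner in the head, Atp5a1, differed by -0.06 (SE 0.12). The 3 c-ring genes, which encode the same mature protein, differed by -0.05 (Atp5g1), -0.10 (Atp5g2) and -0.02 (Atp5g3), with overlapping groups.

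The smallest p of all members belonged to Atp5e, the epsilon subunit of the head. Its only probe set is of a kind that may match several transcripts. The same holds for the brightest probe sets of Atp5k, Cox7c and Ndufa3. Atp5e read 9.59, 9.82 and 9.95 in PBS-liposome and 9.38, 9.40 and 9.32 in clodronate-liposome arrays. All clodronate-liposome arrays were lower, by 0.42 on the log2 scale in the mean, with the PBS-liposome arrays spread more widely (SD 0.18 against 0.039). The lower mean corresponded to a 1.34-fold difference (SE 0.12 on the log2 scale, 95% interval -0.69 to -0.15), which did not pass the threshold (adjusted p = 0.223 by limma). With 1 array left out at a time it ran from -0.52 to -0.34. Atp5k, a small membrane subunit, lay the other way, at 10.66, 10.79 and 10.76 against 11.14, 10.90 and 11.08. Its groups did not overlap (0.30, SE 0.10, 1.24-fold, adjusted p = 0.328 by limma), yet 2 dimmer probe sets of the gene differed by 0.04 and 0.08. Atp5c1, the gamma subunit that forms the turning shaft, differed by -0.10 (SE 0.090), and Atp5mpl, a small membrane subunit, by 0.14 (SE 0.10).

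**Figure D2:**
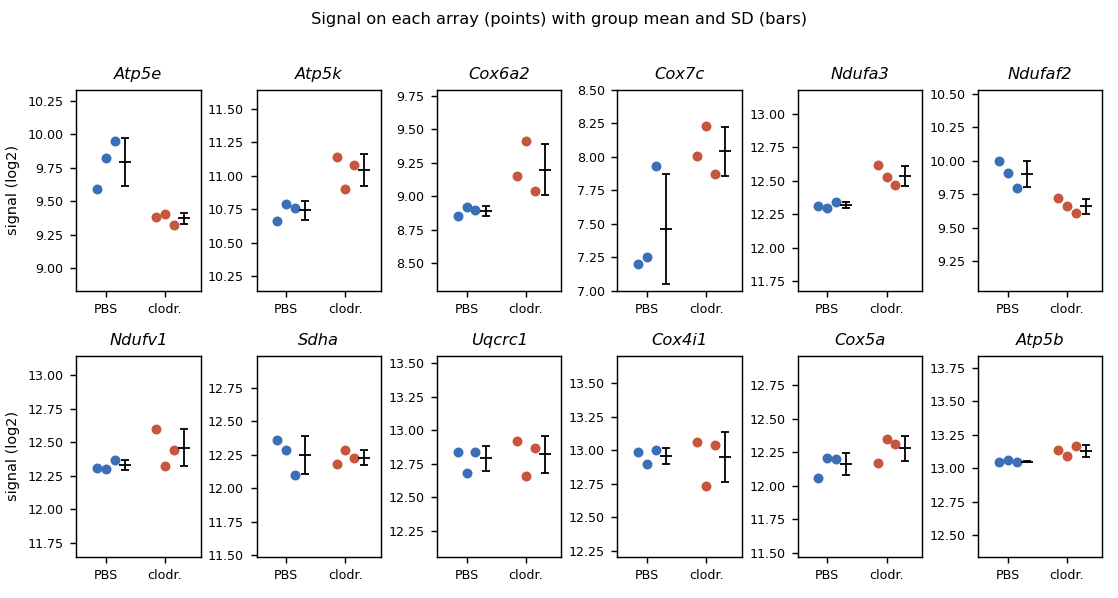
Log2 signal of 12 members on each array (points, replicates 1 to 3 from left to right within a group), with the group mean and SD (bars); every panel spans 1.5 log2 units. The upper row holds the 6 members with an unadjusted p under 0.05. The lower row holds core subunits and, for complex IV, Cox4i1 and Cox5a, chosen for display. The core subunits Ndufs1 (0.20) and Uqcrfs1 (0.16), with larger differences than those in the lower row, are not shown. The groups of Atp5b do not overlap.

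Ndufa4l2, whose product is known from hypoxia, differed by -0.15 (SE 0.12), and Cox7a2l by -0.06 (SE 0.095). The groups overlapped in both genes.

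In complexes I, II and III, single clodronate-liposome arrays lay farther apart than the groups did. Each value was set against the mean of its gene over the 6 arrays, and the median over a complex was taken on each array. For complex I these medians were -0.040, -0.050 and 0.022 in PBS-liposome and 0.079, -0.054 and 0.026 in clodronate-liposome replicates 1 to 3. For complex II they were -0.0051, -0.024 and 0.018 against 0.092, -0.14 and 0.046, and for complex III -0.047, -0.050 and 0.030 against 0.11, -0.084 and 0.076. Replicate 1 of clodronate-liposome was thus the highest and replicate 2 the lowest of the 6 arrays in all 3 complexes. In complex IV the highest and the lowest were 0.057 (clodronate-liposome replicate 1) and -0.022 (PBS-liposome replicate 2), and in complex V 0.052 and -0.034 (clodronate-liposome replicates 1 and 2). Replicate 2 was the lowest of the clodronate-liposome arrays in 47 of 89 members (52.8%), against 35.3% of all genes, and replicate 1 the highest in 51 (57.3%), against 37.7%. This was not particular to the members. The shares were 54.7% and 60.0% in the mitochondrial ribosome and 56.2% and 47.9% in the cytosolic ribosome. Among markers they were 80.0% and 70.0% for endothelial cells and 85.7% and 71.4% for fibroblasts (7 genes). They were lower in complex IV assembly factors (26.7% and 26.7%), the tricarboxylic acid cycle (33.3% and 25.0%) and leukocyte markers (12.5% and 25.0%). The array controls set clodronate-liposome replicates 1 and 3 apart together. In the median of each complex, replicate 3 lay between replicates 1 and 2. In complexes I, II and III it lay above 0, as replicate 1 did, with replicate 2 below 0. Among the complex I assembly factors replicate 3 was the lowest, at -0.11. Hybridization controls read 11.91 and 11.94 in clodronate-liposome replicates 1 and 3 and 12.11 to 12.24 in the other arrays, and control probe sets for 18S ribosomal RNA 13.01 and 13.00 against 12.33 to 12.63. With the hybridization controls as a covariate, 0 members passed the threshold by limma, and 7 of the 40 single members described took the other sign. The part of these controls in the values of the members was otherwise not tested, and no fit used the 18S controls.

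**Figure D3:**
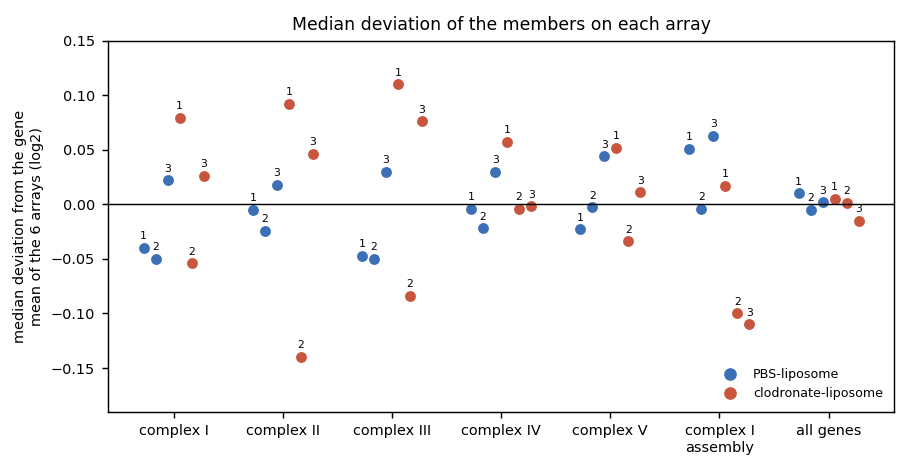
Median, over the members of each complex, of the deviation from the gene's mean of the 6 arrays (log2), for each array (points, numbered by replicate), with all genes at the right. Clodronate-liposome replicate 2 lies lowest and replicate 1 highest for complexes I, II and III, while the medians over all genes lie close to 0.

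For 51 members the array held more than 1 probe set, and in 24 of these all had the sign of the brightest. The 89 dimmer probe sets fall into 66 at or above the median signal, with a median difference of 0.05 (-0.26 to 0.58), and 23 below it, with a median of -0.09 (-0.40 to 0.95). The 0.95 came from a probe set of Ndufb9, a membrane-arm subunit of complex I. It read 6.84, 6.63 and 6.67 in PBS-liposome and 7.93, 7.69 and 7.37 in clodronate-liposome arrays (SE 0.15, adjusted p = 0.0615 by limma), the smallest adjusted p of the 178 probe sets. Its groups lay clearly apart, but the other 2 probe sets of Ndufb9, both above the median signal, differed by 0.02 and 0.06. A second probe set of Atp5c1 read 8.76, 8.58 and 8.38 against 8.95, 9.26 and 9.25 (0.58, SE 0.14, adjusted p = 0.166 by limma), where the brightest differed by -0.10. Dimmer probe sets of Atp5g1 (0.47), Atp5g2 (0.51), Ndufs4 (0.37) and Cox8a (0.35) were also higher, while those of Uqcrq (-0.40) and Ndufc1 (-0.26) were lower, each with groups that did not overlap. These are the 8 of the 89 dimmer probe sets with an unadjusted p under 0.05, against 4864 of all 45037 probe sets tested. None of the 8 passed the threshold, and what these probe sets bind was not tested. They are named after their values had been seen.

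**Figure D4:**
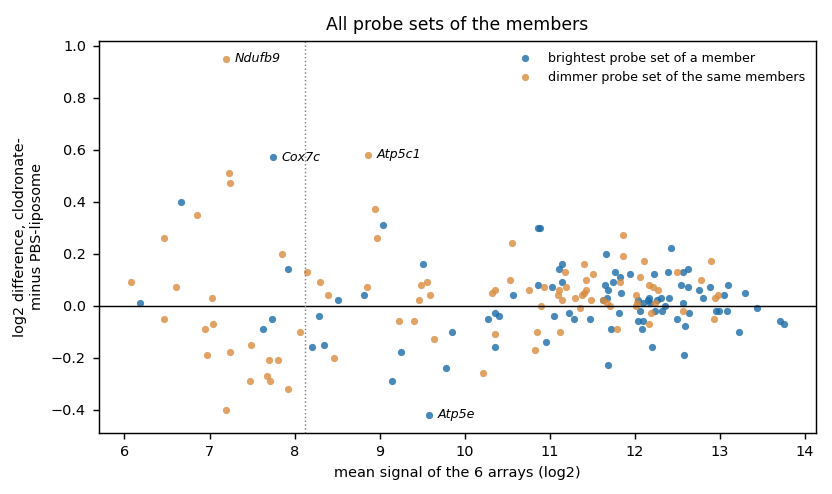
Log2 difference, clodronate-liposome minus PBS-liposome, against the mean log2 signal of the 6 arrays for all 178 probe sets of the members; the dotted line is the median signal of the array, 8.12. The brightest probe sets (blue) lie close to 0 at high signal, and the largest difference, 0.95 in Ndufb9, is that of a dim second probe set.

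Genes of neighboring mitochondrial pathways gave a like picture, with 0 past the threshold by limma in each list. Ndufa4 itself, left out above, read 11.95, 11.89 and 11.90 in PBS-liposome and 11.63, 11.78 and 11.73 in clodronate-liposome arrays (-0.20, SE 0.092, adjusted p = 0.488 by limma), and Cyc1, cytochrome c1 of complex III, differed by 0.02. The 15 assembly factors of complex IV had a median of -0.07 (-0.38 to 0.32). The lowest was Cox10, which makes heme O for the complex, at -0.38 (SE 0.11, adjusted p = 0.244 by limma) with groups that did not overlap. Electron carriers and enzymes of coenzyme Q synthesis (15 genes) had a median of 0.01, enzymes of the tricarboxylic acid cycle (12) of 0.02, and nucleotide carriers and porins (9) of -0.03. The 15 regulators of mitochondrial biogenesis had a median of 0.05, with Twnk, the helicase of mitochondrial DNA, at 0.28 (SE 0.098) and Ppargc1a, the coactivator PGC-1alpha, at -0.28 (SE 0.15). The 75 proteins of the mitochondrial ribosome had a median of -0.01 (-0.36 to 0.25), and the 23 of protein import of 0.03. Outside mitochondria, 48 proteins of the cytosolic ribosome had a median of -0.02 (-0.27 to 0.57). Unadjusted p was under 0.05 in 4 of the 75 (5.33%), 2 of the 23 (8.7%) and 3 of the 48 (6.25%), against 10.0% of all genes. It was also under 0.05 in 2 assembly factors of complex IV (13.3%) and 1 regulator of biogenesis (6.67%), and in 0 genes of the other lists.

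**Figure D5:**
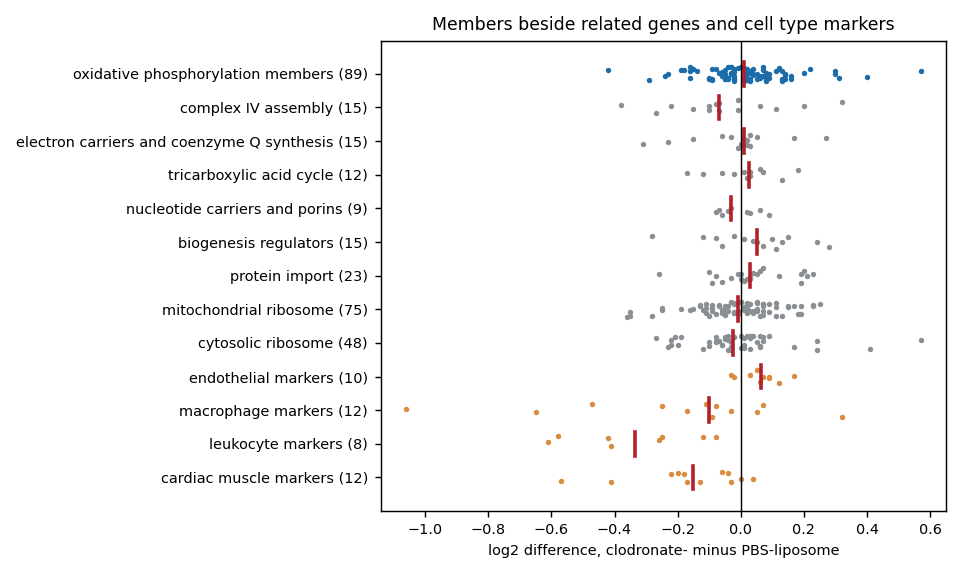
Log2 difference between clodronate-liposome and PBS-liposome (above 0 is higher with clodronate-liposome) for the members (blue), related genes (grey) and cell type markers (orange), with 1 dot per gene, the number of genes in parentheses and the median of each list in red. The median is 0.01 for the members, between -0.07 and 0.05 for the related lists and -0.34 for leukocyte markers.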

How the data were processed

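The authors deposited log2 values, computed per probe set by robust multiarray averaging (background correction, quantile normalization and a summary over probes). Labelled RNA was amplified from 1 ng of total RNA, per the labels. The values were used as deposited. Of 45101 probe sets, 64 manufacturer controls were set aside. The platform annotation gave 34945 of the other 45037 a single symbol, and 10 probe sets that share a symbol of the rule with another gene were left out. This removed 8 symbols, which are not analysed here. Neither file gave coordinates. Groups follow the treatment given in the labels.

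Differences are clodronate-liposome minus PBS-liposome from lmFit and eBayes (limma 3.58.1, R 4.3.3), two-sided and without covariates, with Benjamini-Hochberg adjustment over the 45037 probe sets and called at 0.05. Residual and prior degrees of freedom were 4 and 3.9, so each variance was drawn toward a value estimated from all probe sets. The p-values rest on that variance and cover no variation beyond these 3 samples per group. The code was tested on simulated data. Medians over lists are descriptions without a test. Single genes in the text are, per complex, the 4 with the smallest p, isoform pairs and up to 3 genes per related list. Chosen core subunits were added, with Cox4i1 and Cox5a, which are not core subunits, taken for complex IV. Genes that share only the symbol prefix of the ribosome and import lists (such as S6 kinases) were removed after their values had been seen. The members, lists and this rule were chosen with earlier results of these data known. Alternatives left out arrays or dim probe sets, renormalized or centred the arrays, chose other probe sets, added covariates, array weights or the replicate number, or moderated the variance differently.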

Additional observations from a re-analysis of the deposited data

How the results depend on the processing

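In every setting 0 members passed the threshold by limma. The smallest adjusted p ran from 0.0615, in Ndufb9 when genes were read by their most variable probe set, to 0.463, in Cox6a2 without clodronate-liposome replicates 1 and 3 together. That choice put 14 members at an unadjusted p under 0.05 (15.7%, against 14.0% of all genes) and moved the median of complex V to 0.06. Without probe sets that may match several transcripts it was 0.04, over the 71 members left in all complexes. Atp5e was not among those left, the smallest adjusted p by limma was 0.166 in Atp5c1, and Ndufa3 differed by 0.01. The hybridization controls as a covariate moved the median of the complex I assembly factors to -0.10. Without clodronate-liposome replicates 1 and 3 together, which leaves 1 array that is assumed to vary like the PBS-liposome arrays, medians were -0.03 for all structural subunits, -0.03 for complex I, -0.12 for complex II and -0.13 for the assembly factors, and the groups did not overlap in 60 members (67.4%, against 57.4% of all genes).

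With 1 array left out at a time, 22 to 41 members (24.7% to 46.1%, against 23.2% to 32.3% of all genes) had groups that did not overlap, where with all arrays 18 did (20.2%, against 16.2%). The median ran from -0.14 to -0.01 for the assembly factors, from -0.03 to 0.04 for complex IV and from -0.03 to 0.05 for complex V. The 41 members (46.1%, against 32.3%), the 0.04 and the 0.05 arose without clodronate-liposome replicate 2, and 28 members (31.5%, against 26.5%) without replicate 1. Other medians stayed within the spread of single arrays. Of the 40 single members described, up to 11 took the other sign under an alternative, none of them past the threshold in any setting. With the replicate number as a block, 0 members passed, the smallest adjusted p was 0.292 and 0 probe sets of the whole array passed, against 138 without it (5033 and 4864 at an unadjusted p under 0.05). Deviations of arrays with the same number correlated at 0.0751, 0.0699 and 0.0361, each the highest for its array, too low to take the numbers as pairs.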
